A study of Mus musculus with 7 samples.

Results

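Described here are 9 genes of peroxide removal and ferroptosis control, read from RNA-seq of aged mouse retinal pigment epithelium (RPE). They were chosen by name: the glutathione peroxidases Gpx1, Gpx3, Gpx4, Gpx7 and Gpx8, and the lipid and quinone enzymes Acsl4, Lpcat3, Aifm2 and Alox15. All 9 were found among the 21861 rows of the count table, and all 9 passed the filter on low counts that left 15075 genes for testing. RPE from aged mice was collected 12 weeks after treatment with an adeno-associated virus (AAV) vector. The control vector carried GFP (AAV-GFP, 3 libraries) and the test vector carried GSTA4, a glutathione transferase that conjugates lipid aldehydes (AAV-GSTA4, 4 libraries). The labels give no strain, sex, exact age, vector promoter or serotype, and do not say whether each library is a separate animal, so p-values measure only the spread between these libraries, part of which may be technical. Both groups mixed libraries with and without Y-linked transcripts: Ddx3y, a Y-linked gene, was at 320 CPM in AAV-GFP replicate 1, at 281 and 196 CPM in AAV-GSTA4 replicates 3 and 4, and at 2.21 CPM or less in the other 4 libraries.

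Glutathione peroxidases use glutathione or other thiols to reduce hydrogen peroxide to water and organic peroxides to alcohols. Gpx4 acts on peroxides still esterified in membrane phospholipids, and loss of this activity leads to ferroptosis, an iron-dependent death in which membrane lipids oxidise without control. Acsl4 and Lpcat3 load polyunsaturated fatty acids, the oxidisable substrate, into phospholipids, Alox15 can oxygenate them, and Aifm2 (also called FSP1) regenerates reduced coenzyme Q, which stops radical chains without glutathione. The RPE takes up photoreceptor outer segments rich in polyunsaturated fatty acids every day and works under light and high oxygen.

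The peroxidases differ at the codon of the catalytic residue, which is shown here because it separates the selenocysteine members, described first below, from Gpx7 and Gpx8. Each line gives 5 codons before it, the codon itself in capitals and 4 codons after it, 5′ to 3′, from the longest complete coding transcript in GENCODE M21 (GRCm38).
Gpx4: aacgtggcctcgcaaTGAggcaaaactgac
Gpx1: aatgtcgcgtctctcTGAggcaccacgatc
Gpx3: aacgtagccagctacTGAggtctgacagac
Gpx7: aacgtagctagcgaaTGTggcttcacagac
Gpx8: aacgtggctagtgacTGCcgcttcacagac
Gpx4, Gpx1 and Gpx3 carry an in-frame TGA that is read as selenocysteine. At the aligned codon Gpx7 has TGT and Gpx8 has TGC, which both encode cysteine. Of the residues aligned with Gpx4, 40% are identical in Gpx1, 34.6% in Gpx3, 44.9% in Gpx7 and 36.6% in Gpx8, with selenocysteine counted as cysteine.

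Libraries held between 15329181 and 28998964 counts, and 3 counts, taken as the floor of detection, were worth 0.103 to 0.196 CPM, the read count scaled to library size with edgeR's trimmed-mean (TMM) factors. Values of a group are listed below in the order of its replicate numbers. AAV-GFP replicate 3 stood apart, with a mean correlation of log2 CPM with the others of 0.838 against 0.910 to 0.926, so results are also given without it. As a check of the labels, the human transgene row, hGSTA4, held 3, 1 and 1 counts in the control libraries and 4209, 5239, 45 and 1184 in the test libraries. The d2EGFP row held 99, 3970 and 2361 counts in AAV-GFP and 163, 64, 7 and 26 in AAV-GSTA4, so the library labelled AAV-GFP replicate 1 had fewer than the library labelled AAV-GSTA4 replicate 1. All 12 RPE markers had counts in every library, although Best1, an RPE chloride channel, stayed between 1.15 and 3.32 CPM. Summed, the RPE markers took 6.89%, 5.71% and 3.07% of counts in AAV-GFP and 7.81%, 5.46%, 9.52% and 8.39% in AAV-GSTA4 (exact permutation test, two-sided, p = 0.143, adjusted 0.214 over the 3 shares planned). The difference was 2.58 percentage points with all 12 markers. It was 0.876 points without Rgr, the most abundant marker, which also makes the share itself smaller (exact permutation p = 0.257). In the fit 10 of the 12 RPE markers were higher in AAV-GSTA4 and 2 lower. Each of 12 rod photoreceptor markers was lower in AAV-GSTA4 in the fit, and their summed share was 1.28% to 5.30% in AAV-GFP and 0.655% to 1.26% in AAV-GSTA4 (exact permutation p = 0.0286, the smallest that 3 against 4 libraries allow; 0.0857 adjusted over the 3 shares planned). Lens markers, 12 crystallins and lens fibre genes listed after their values were seen, took 13.1% of counts in AAV-GSTA4 replicate 2 and 0.534% to 3.11% in the other 6 libraries, and all 12 were highest in that library. Some crystallins are also made by the RPE. Without that library Lpcat3 was still the 1 gene of the 9 with an unadjusted p under 0.05 in edgeR. In such tissue RNA, fewer cells of a type and less RNA per cell cannot be told apart. The rod marker shares did not overlap between the groups, so rod RNA and the vector cannot be fully told apart in fits with a rod covariate.

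Gpx4 dominated the group. Counted per kilobase of exon, which permits comparison between genes, its mean level over the 7 libraries was 1977 CPM per kb, rank 19 of 14917 genes. Gpx3 followed at 197 CPM per kb, Gpx1 at 131 and Gpx8 at 83.0. The genes that do not encode peroxidases were far lower, at 17.0 CPM per kb for Lpcat3, 6.09 for Aifm2 and 5.95 for Acsl4. Gpx7 stood at 3.41 and Alox15 at 0.873 CPM per kb. The range of Gpx4 lay wholly above that of Gpx3, and that of Gpx8 wholly above that of Lpcat3. The other neighbours in this order had overlapping ranges, and Aifm2 exceeded Acsl4 in 3 of 7 libraries.

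**Figure D1:**
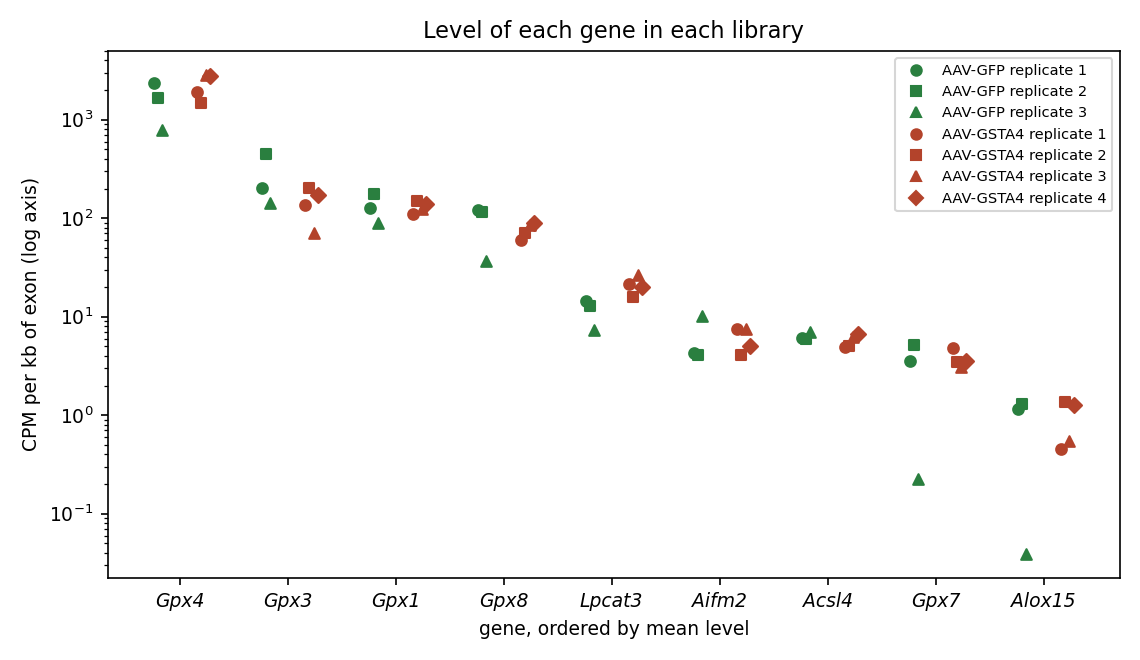
Level of each gene in each library, in CPM per kb of exon on a log axis, with genes ordered by their mean over the 7 libraries; each point is a library, colour is the vector and shape the replicate. Gpx4 lies above every other gene in all 7 libraries, and AAV-GFP replicate 3 is the lowest library for Gpx4, Gpx1, Gpx8, Lpcat3, Gpx7 and Alox15.

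The design asks how the GSTA4 vector altered expression relative to the GFP vector. None of the 9 genes passed an adjusted p of 0.05 by edgeR's quasi-likelihood method (Benjamini-Hochberg adjustment over all 15075 genes). In that test 0 genes (0.00%) of the whole table passed and 1794 (11.9%) had an unadjusted p under 0.05. The transgene row hGSTA4 did not pass it either, with a log2 fold change of 10.67 ± 1.77 (SE) and an adjusted p of 0.363. DESeq2 called 201 genes (1.33%), none of them among the 9. Of the 9, 1 had an unadjusted p under 0.05, Lpcat3, which was higher in AAV-GSTA4; genes with such a p and that direction made up 5.27% of those tested. Lpcat3 was also the 1 gene of the 9 whose groups did not overlap, against 12.0% of all genes (6.44% with AAV-GSTA4 higher and 5.61% with it lower). These shares are near the background. In the fit 5 of the 9 genes were higher and 4 lower, where 55.4% of all genes were lower, with a median log2 fold change of 0.01 beside -0.07 over all genes.

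Gpx4 (GRCm38 chr10:80047166-80056439, plus strand), the phospholipid hydroperoxide reductase, had 4087, 2857 and 1349 CPM in AAV-GFP and 3257, 2545, 4936 and 4831 CPM in AAV-GSTA4. AAV-GSTA4 replicates 3 and 4 lay above every AAV-GFP library, but replicates 1 and 2 lay within the AAV-GFP range, so the groups overlapped. The means were 2764 CPM ± 1372 (SD, n = 3) and 3892 CPM ± 1182 (SD, n = 4). The fitted log2 fold change came to 0.49 ± 0.43 (SE), at an adjusted p of 0.667 in edgeR's test and a 95% interval of the fold from 0.721 to 2.75. Without AAV-GFP replicate 3 it was 0.17 ± 0.32 (SE). GENCODE also annotates a like-named pseudogene, Gpx4-ps2, and how reads shared by such copies were counted is not given in the sources used here. The summed share of the RPE markers was likewise lowest in AAV-GFP replicate 3 (3.07%) and highest in AAV-GSTA4 replicates 3 and 4 (9.52% and 8.39%). AAV-GFP replicate 1 and AAV-GSTA4 replicates 3 and 4, the libraries with Y-linked transcripts, held the highest Gpx4 values. With the Y-linked level as covariate the log2 fold change of Gpx4 was 0.33 ± 0.39 (SE) in edgeR. Whether either pattern accounts for the Gpx4 values was not tested.

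Gpx1 (chr9:108338903-108340343, plus strand) reduces hydrogen peroxide and free fatty acid peroxides in the cytosol and mitochondria. It had 185, 254 and 128 CPM in AAV-GFP and 160.0, 217, 179 and 203 CPM in AAV-GSTA4. Every AAV-GSTA4 library lay inside the AAV-GFP range. The means were 189 CPM ± 63.1 (SD, n = 3) and 189.8 CPM ± 25.3 (SD, n = 4). On the log2 scale the difference was 0.01 ± 0.27 (SE), and the 95% interval of the fold ran from 0.663 to 1.53 in the edgeR fit.

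Gpx3 (chr11:54902453-54910377, plus strand) is the secreted peroxidase found in plasma and extracellular fluid. It had 364, 820.3 and 256 CPM in AAV-GFP and 249.5, 371, 127 and 314 CPM in AAV-GSTA4. AAV-GFP replicate 2 was the highest library and AAV-GSTA4 replicate 3 the lowest, and AAV-GSTA4 replicates 2 and 4 lay within the AAV-GFP range. The log2 fold change came to -0.86 ± 0.45 (SE), at an unadjusted p of 0.0905 and an adjusted p of 0.478 in edgeR's test, and the 95% interval of the fold ran from 0.273 to 1.12. Without AAV-GFP replicate 2 it was -0.22, whereas without AAV-GFP replicate 3 it was -1.16 with an unadjusted p of 0.0370 in edgeR's test. The size of the difference thus moved with AAV-GFP replicate 2. With library totals in place of TMM scaling, or with limma-voom, Gpx3 joined Lpcat3 at an unadjusted p under 0.05, so that 2 of the 9 genes had such a p, beside 15.9% and 21.8% of all genes.

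Within the family, Gpx4 made up 83.9%, 68.8% and 74.5% of the summed peroxidase level per kb in the control libraries and 85.7%, 77.4%, 91.0% and 87.3% in the test libraries. Gpx3 made up 7.11%, 18.8% and 13.5% in AAV-GFP and 6.25%, 10.7%, 2.23% and 5.39% in AAV-GSTA4. The ratio of Gpx4 to Gpx3 per kb accordingly ran from 3.66 to 11.8 in AAV-GFP and from 7.21 to 40.8 in AAV-GSTA4. The groups overlapped in both shares. The highest ratio came from AAV-GSTA4 replicate 3, the library with the fewest hGSTA4 counts of its group.

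**Figure D2:**
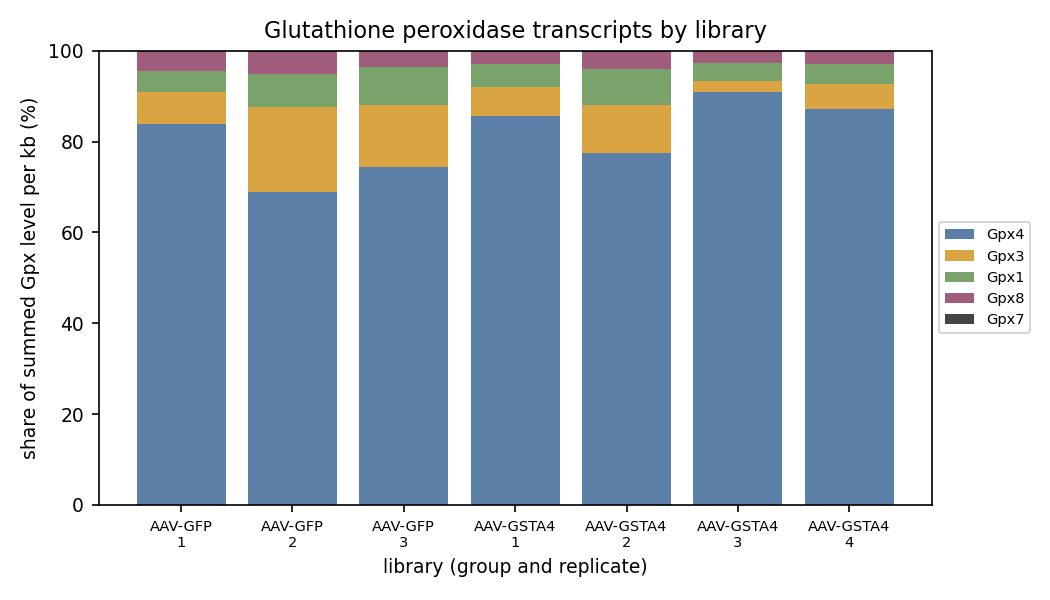
Share of each glutathione peroxidase in the summed peroxidase level per kb of exon, in percent, 1 bar per library; Gpx2, Gpx5 and Gpx6 are in the sum but too low to draw. Gpx4 takes 68.8% to 91.0% of the level and Gpx3 2.23% to 18.8%.

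Gpx8 (chr13:113042753-113046410, minus strand) is a membrane protein of the endoplasmic reticulum that acts there with the oxidative folding machinery. It had 128, 121 and 38.4 CPM in AAV-GFP and 63.4, 74.5, 88.4 and 94.2 CPM in AAV-GSTA4. AAV-GFP replicates 1 and 2 lay above all 4 AAV-GSTA4 libraries and AAV-GFP replicate 3 lay below them all. Over all 7 libraries the log2 fold change came to -0.26 ± 0.37 (SE), at an adjusted p of 0.806 in edgeR's test. Without AAV-GFP replicate 3 it was -0.64 ± 0.20 (SE), with an unadjusted p of 0.0102 and an adjusted p of 0.325 in edgeR's test; over the alternatives the adjusted p ran from 0.280 to 0.997. In that fit 3 of the 9 genes, Gpx3, Gpx8 and Lpcat3, had an unadjusted p under 0.05, beside 12.5% of all genes. With the rod marker score as covariate Gpx8 was the 1 gene of the 9 with such a p, at -1.13 ± 0.40 (SE) on the log2 scale, beside 9.57% of all genes. The opposite strand carries Cdc20b, which shares no exonic base with Gpx8.

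Gpx7 (chr4:108400390-108406961, minus strand), the soluble peroxidase of the endoplasmic reticulum, was much scarcer than Gpx8. It had 4.61, 6.60 and 0.288 CPM in AAV-GFP and 6.15, 4.51, 3.99 and 4.61 CPM in AAV-GSTA4. AAV-GFP replicate 3 held only 6 counts, against 68 to 171 in the other 6 libraries, and those 6 were alike between the groups. The log2 fold change of 0.33 ± 0.76 (SE) turned to -0.22 ± 0.39 (SE) without that library, with adjusted p-values of 0.892 and 0.837 in edgeR's test.

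Lpcat3 (chr6:124663027-124704418, plus strand) is a lysophospholipid acyltransferase that inserts polyunsaturated acyl chains into phospholipids. It had 47.4, 41.7 and 24.1 CPM in AAV-GFP and 69.8, 52.3, 87.1 and 65.9 CPM in AAV-GSTA4. All 4 AAV-GSTA4 libraries lay above all 3 AAV-GFP libraries. Within AAV-GSTA4 the highest Lpcat3 value came from replicate 3, which held the fewest hGSTA4 counts (45). The lowest came from replicate 2, which held the most (5239). Whether Lpcat3 follows the transgene level was not tested. The means of Lpcat3 were 37.7 CPM ± 12.1 (SD, n = 3) and 68.8 CPM ± 14.3 (SD, n = 4). In edgeR's test the log2 fold change was 0.87 ± 0.28 (SE), a fold of 1.82 with a 95% interval from 1.18 to 2.83, with an unadjusted p of 0.0125 and an adjusted p of 0.363. Without AAV-GFP replicate 3 it was 0.63 ± 0.23 (SE). With the rod marker score as covariate it was 0.50 ± 0.37 (SE; unadjusted p = 0.206 in edgeR) and with the RPE marker score 0.46 ± 0.21 (SE; unadjusted p = 0.0569 in edgeR), and over all alternatives the adjusted p ran from 0.0937 to 0.865. Lpcat3 shares 334 exonic bases, 10.2% of its exons, with Emg1 on the other strand, and without strand information reads there cannot be assigned to either gene. Emg1 itself had a log2 fold change of 0.14 ± 0.31 (SE).

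Acsl4 (chrX:142317993-142390535, minus strand), which activates arachidonic and related acids for the step that Lpcat3 completes, varied least. It had 32.7, 31.9 and 37.4 CPM in AAV-GFP and 26.4, 27.4, 33.3 and 36.1 CPM in AAV-GSTA4. AAV-GSTA4 replicates 1 and 2 lay below every AAV-GFP library and the other two lay within their range. The log2 fold change came to -0.14 ± 0.21 (SE), at an adjusted p of 0.812 in edgeR's test, and the 95% interval of the fold from 0.654 to 1.26 was the narrowest of the 9. The ratio of Gpx4 to Acsl4 per kb, the main reductase against the enzyme that supplies its substrate, was 391, 281 and 113 in AAV-GFP and 387, 291, 465 and 419 in AAV-GSTA4, and the groups overlapped.

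Aifm2 (chr10:61715263-61739260, plus strand), the coenzyme Q reductase, had 17.7, 16.9 and 41.7 CPM in AAV-GFP and 30.7, 16.9, 31.0 and 20.7 CPM in AAV-GSTA4. It was 1 of 2 genes of the 9, with Acsl4, whose highest value was in AAV-GFP replicate 3, the library with the largest rod marker share (5.30%). The log2 fold change was -0.04 ± 0.37 (SE) over all 7 libraries and 0.52 ± 0.30 (SE) without AAV-GFP replicate 3, with adjusted p-values of 0.980 and 0.496 in edgeR's test. Its exons share 233 bases (5.65%) with H2afy2 on the other strand.

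Alox15 (chr11:70344152-70352031, minus strand), a lipoxygenase that oxygenates polyunsaturated chains in membranes and is typical of some macrophages, had 61, 83 and 2 counts in AAV-GFP and 21, 69, 23 and 84 counts in AAV-GSTA4. These were 2.84, 3.20 and 0.0959 CPM and 1.10, 3.31, 1.35 and 3.10 CPM. In AAV-GFP replicate 3 it was under the floor of 3 counts. The log2 fold change of 0.11 ± 0.94 (SE) had a 95% interval of the fold from 0.253 to 4.64 in the edgeR fit, and without AAV-GFP replicate 3 the log2 fold change was -0.44 ± 0.59 (SE). A difference was not detectable with this spread between libraries. Summed macrophage and microglia markers took 0.0697% to 0.0993% of counts in AAV-GFP and 0.0653% to 0.0846% in AAV-GSTA4, and 11 of those 12 markers were lower in AAV-GSTA4 in the fit. The exception was Csf1r, the most abundant of them. Without Csf1r the summed share differed by -0.0238 percentage points, AAV-GSTA4 minus AAV-GFP (exact permutation p = 0.0286). The part of these markers in the Alox15 values was not tested.

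**Figure D3:**
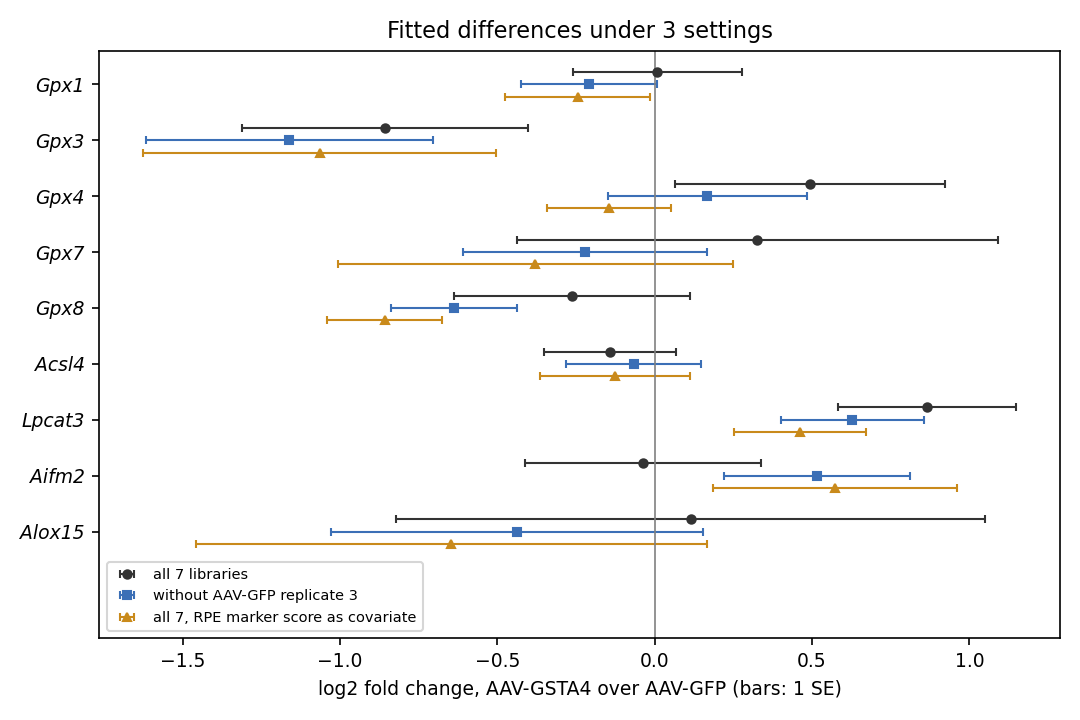
Log2 fold change of AAV-GSTA4 over AAV-GFP for the 9 genes (points; bars are 1 SE), fitted over all 7 libraries, without AAV-GFP replicate 3, and over all 7 with the mean log2 CPM of 12 RPE markers as a covariate. Lpcat3 lies above 0 and Gpx3, Gpx8 and Acsl4 below it in all 3 fits, with Acsl4 within 1 SE of 0, while Gpx1, Gpx4, Gpx7, Aifm2 and Alox15 change side.

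Because the RPE marker share varied between libraries, the 9 genes were also read per 100 counts on the 12 RPE markers, a scale chosen after the data were seen. Its denominator is not neutral, since 10 of the 12 markers were higher in AAV-GSTA4 in the fit. With all 12 markers, all 9 genes had a lower mean in AAV-GSTA4 than in AAV-GFP, with ratios of means from 0.329 (Gpx3) to 0.971 (Lpcat3). Without Rgr the ratio was 1.07 for Lpcat3 (exact permutation p = 0.657) and 1.00 for Gpx7, and the other genes ran from 0.363 to 0.914. With all 12 markers Lpcat3 had 0.0680, 0.0767 and 0.107 counts in AAV-GFP and 0.0862, 0.0866, 0.0794 and 0.0735 counts in AAV-GSTA4. The separation seen on the CPM scale was gone, with means of 0.0838 ± 0.0204 (SD, n = 3) and 0.0814 ± 0.00623 (SD, n = 4; exact permutation test, p = 0.914, adjusted 0.968 over 18 tests of 9 genes and 2 denominators).

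Gpx8 separated the groups on this scale but not on the CPM scale. It had 0.184, 0.223 and 0.170 counts per 100 RPE marker counts in AAV-GFP and 0.0784, 0.123, 0.0806 and 0.105 in AAV-GSTA4. The highest AAV-GSTA4 value was under the lowest AAV-GFP value, that of replicate 3. How many of all genes separate the groups on this scale was not computed. The separation of Gpx8, or of Acsl4 below, is thus not read as particular to these genes. Group means of 0.193 ± 0.0274 (SD, n = 3) and 0.0968 ± 0.0214 (SD, n = 4) stood in a ratio of 0.503 (exact permutation p = 0.0286, adjusted 0.171). Leaving out Rgr, the most abundant marker, gave a ratio of 0.551 with the same exact p. In the edgeR fit with the RPE marker score as covariate, the log2 fold change of Gpx8 was -0.86 ± 0.18 (SE) with an unadjusted p of 0.00119 and an adjusted p of 0.317, and Gpx8 was the 1 gene of the 9 with an unadjusted p under 0.05, beside 11.7% of all genes.

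Gpx4 had 5.87, 5.25 and 5.98 counts per 100 RPE marker counts in AAV-GFP and 4.02, 4.21, 4.50 and 5.38 in AAV-GSTA4, with means of 5.70 ± 0.395 (SD, n = 3) and 4.53 ± 0.602 (SD, n = 4). AAV-GSTA4 replicates 1 to 3 lay below all AAV-GFP libraries and replicate 4 lay within their range (exact permutation p = 0.0857, adjusted 0.193). Its log2 fold change with the RPE marker covariate was -0.14 ± 0.20 (SE) in edgeR, of opposite sign to the CPM scale. Gpx3 had 0.523, 1.51 and 1.14 counts in AAV-GFP and 0.308, 0.614, 0.116 and 0.350 in AAV-GSTA4 (exact permutation p = 0.0571, adjusted 0.171). Acsl4 ran from 0.0470 to 0.166 in AAV-GFP and from 0.0304 to 0.0453 in AAV-GSTA4, without overlap, but the groups overlapped once Rgr was left out. For Gpx1, Gpx7, Aifm2 and Alox15 the groups overlapped with either denominator.

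**Figure D4:**
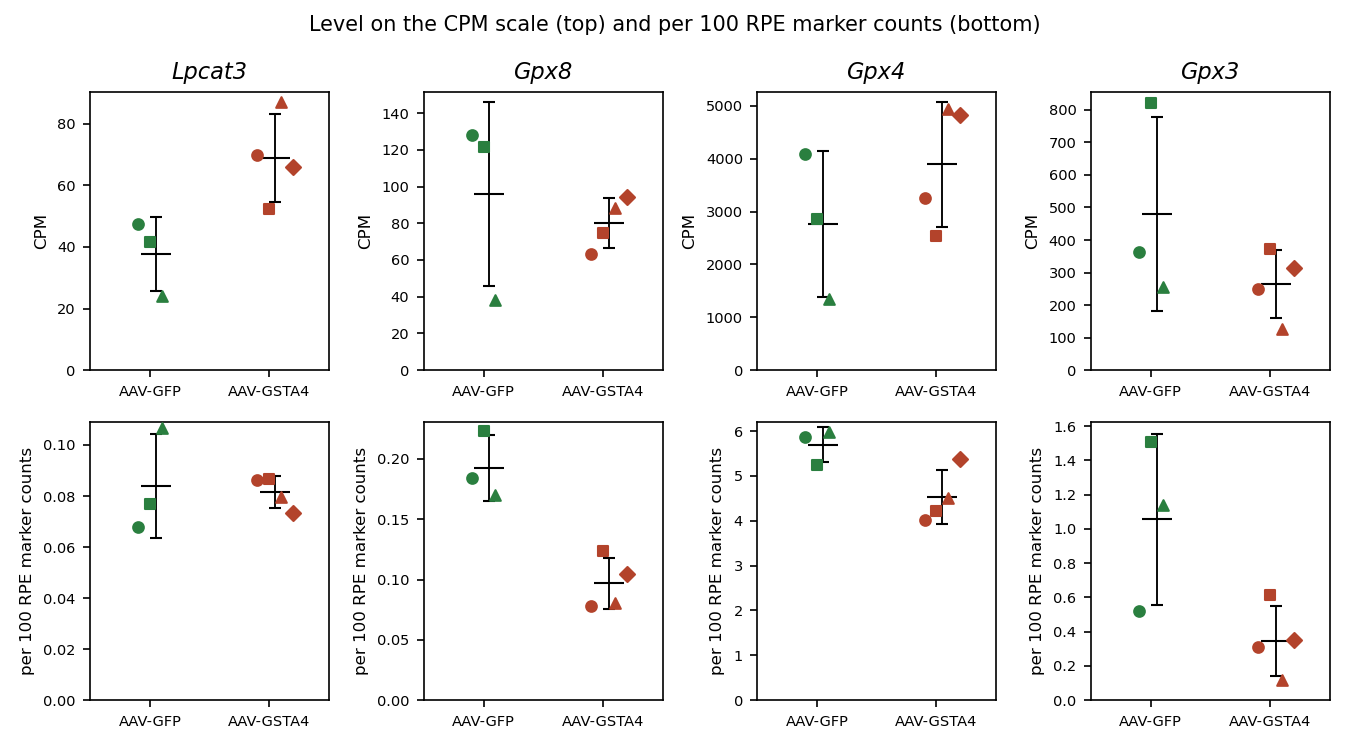
Lpcat3, Gpx8, Gpx4 and Gpx3 in each library as CPM (top row) and as counts per 100 counts on the RPE markers (bottom row); axes start at 0, points are libraries with the shapes of the plot of levels, and black bars are the mean and SD. Lpcat3 separates the groups in the top row only and Gpx8 in the bottom row only. The share of all genes that separate on the scale of the bottom row was not computed.

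The other family members were close to absent. Gpx2, the intestinal form, had 6 to 28 counts per library. Gpx5 and Gpx6, forms of the epididymis and the olfactory epithelium, had at most 20 and 14 counts and did not pass the filter on low counts.

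Genes around the 9 were read from 6 lists with 96 genes, of which 93 were tested. None had an adjusted p under 0.05 in edgeR. An unadjusted p under 0.05 was found for 17 genes that were higher (18.3%, beside 5.27% of all genes) and for 3 that were lower (3.23%, beside 6.63%). The lists were chosen with earlier results of these data known, so these shares are not a test of the pathways. The median log2 fold change of the 93 was 0.08. Of 11 genes of selenoprotein synthesis, 6 were higher and 5 lower in all, with a median of 0.00, and 4 were higher at that p: Lrp8 and Lrp2, receptors that take up selenoprotein P, and, named after their values were seen, Eefsec and Sepsecs, which act in selenocysteine incorporation and synthesis. Lrp8 was at 50.0, 45.3 and 37.4 CPM in AAV-GFP and at 76.8, 66.8, 90.0 and 68.2 CPM in AAV-GSTA4, without overlap, a log2 fold change of 0.77 ± 0.21 (SE). For Lrp2 it was 0.88 ± 0.24 (SE), and the adjusted p was 0.363 for both in edgeR and 0.0492 for both in DESeq2.

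In the list for fatty acid activation and phospholipid remodelling, 6 of 20 tested genes were higher and 2 lower at an unadjusted p under 0.05, and the median log2 fold change was 0.31. Fads1, a desaturase that makes arachidonic and related acids, was at 128, 134 and 77.6 CPM in AAV-GFP and at 274, 209, 250.4 and 226 CPM in AAV-GSTA4, without overlap. The log2 difference was 1.08 ± 0.26 (SE), with an adjusted p of 0.363 in edgeR and 0.0124 in DESeq2. Scd2, which makes monounsaturated acids, was at 312, 276 and 275 CPM in AAV-GFP and at 503, 742, 538 and 408 CPM in AAV-GSTA4, also without overlap. The log2 difference was 0.93 ± 0.27 (SE), with an adjusted p of 0.363 in edgeR and 0.0327 in DESeq2. Named after their values were seen, the 2 lower genes were Lpcat1 and Lpcat4, relatives of Lpcat3 by name and reaction, with log2 fold changes of -0.98 ± 0.40 (SE) and -1.38 ± 0.57 (SE).

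Among lipoxygenases and other lipid oxidation genes 1 of 13 tested was higher at that p and none was lower, while in all 3 were higher and 10 lower, with a median log2 fold change of -0.22. The 1 gene was Por, a flavoprotein that passes electrons to cytochromes P450, with a log2 fold change of 0.69 ± 0.22 (SE). Alox5ap, the partner of the leukocyte lipoxygenase, was at 4.56 to 8.80 CPM in AAV-GFP and 2.84 to 4.83 CPM in AAV-GSTA4, with overlap. Of 23 genes of radical-trapping defence 3 were higher and 1 lower at that p, with a median of 0.15: Coq8a and Coq9, which serve coenzyme Q synthesis, had log2 fold changes of 0.79 ± 0.22 (SE; adjusted p = 0.0495 in DESeq2) and 0.68 ± 0.24 (SE), and, named after their values were seen, Spr was also higher and Stard7 lower. Of 14 iron genes 2 were higher at that p, with a median of 0.13: Aco1, an iron-responsive RNA-binding protein, at 0.68 ± 0.21 (SE) and the metal importer Slc39a14 at 0.78 ± 0.26 (SE) on the log2 scale.

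Of 12 genes of cystine uptake and glutathione 1 was higher at that p, Gss, which completes glutathione synthesis. It was at 69.2, 63.8 and 37.2 CPM in AAV-GFP and at 97.4, 607, 54.5 and 104 CPM in AAV-GSTA4, so that replicate 2 alone set its mean. The same library held 13.1% of its counts on lens markers, with Cryba1, a crystallin, at 27988 CPM against 445 to 4833 CPM in the other 6. The part of lens RNA in the Gss value was not tested. The log2 fold change was 1.93 ± 0.78 (SE), and 0.60 without that library (unadjusted p = 0.102 in edgeR). Over the list 5 genes were higher and 7 lower, with a median of -0.05. Ggt5, which cleaves glutathione conjugates, was at 1.49, 2.16 and 4.46 CPM in AAV-GFP and at 0.473, 0.0959, 0.705 and 1.58 CPM in AAV-GSTA4, with overlap.

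Among the 2 genes of each list with the smallest p-values, 9 were higher, Gss apart. With the RPE marker score as covariate their log2 fold changes ran from 0.40 to 0.96, with 8 of the 9 at an unadjusted p under 0.05 in edgeR, and without AAV-GFP replicate 3 from 0.50 to 0.93, with all 9 at such a p. With the rod marker score as covariate they ran from 0.51 to 0.996, all still higher, and 6 of the 9 had such a p. These 9 had been named for their small p-values in a fit of the same libraries, so high counts here were largely set in advance. Over all genes such a p was found for 11.7% with the RPE score, 12.5% without AAV-GFP replicate 3 and 9.57% with the rod score.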

How the data were processed

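The authors deposited 1 table of raw read counts per gene symbol, with 7 columns matched to samples by library name. STAR 2.7.1a, featureCounts 1.6.2 and the builds GRCm38/mm10 and GRCh38/hg38 are named in the submitters' processing notes. The annotation release, strand setting and treatment of multi-mapping reads are not given in the sources used here. Full-length cDNA was made with a low-input kit and fragmented by transposase, per the labels' protocols. PCR copies could not be separated, so floors cover counting error only. For 24 repeated symbols, the most counted row was kept under the symbol and the rest were given suffixes.

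The test was edgeR 4.0.16 (R 4.3.3), the quasi-likelihood test with robust fitting, TMM scaling, the default expression filter and the vector as the only factor, over all genes; 95% intervals use its SE and moderated degrees of freedom (9.57). Single values were compared by two-sided exact permutation over 35 relabellings. Levels per kb use the union of GENCODE M21 exons. Alternatives used DESeq2 1.42.0, limma 3.58.1 (voom), other scalings, filters and covariates, replicate blocks and single libraries left out. The test was tested on simulated data. The lowest chi-square per gene between any 2 libraries was 50.7, so none was counted as a copy. Replicates are numbered by sample title.

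All 9 genes, Gpx2, Gpx5, Gpx6 and the 2 smallest p-values of each list were named by rule. Genes and lists were chosen with earlier results of these data known.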

Additional observations from a re-analysis of the deposited data

Results flagged for a closer look

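In AAV-GSTA4 replicate 2, Gss was at 607 CPM, while the other 3 AAV-GSTA4 libraries were at 54.5 to 104 CPM. Lens markers took 13.1% of counts in the same library and 0.534% to 3.11% in the other 6 of the series, and Cryba1, a lens crystallin, was at 27988 CPM there against 445 to 4833 CPM. The part of lens RNA in the Gss value was not tested. The gap of Gss was 0.910 of the range of the 4 libraries, above Dixon's 95% critical value for 4 samples. It was the only one of 31 values examined in that group, the 9 genes included, whose most distant library passed this limit, and chance passes about 1 in 20.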

How the results depend on the processing

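No setting brought any of the 9 genes to an adjusted p under 0.05. Lpcat3 stayed higher and Gpx3 lower in all 11 alternative fits and all 7 fits without a library. The count of genes past the threshold over the whole table was 0, but 201 in DESeq2, 1 with the rod marker score (Cyp2f2), 1 with a replicate block by either numbering (hGSTA4 each time), and 0 to 1 without single libraries. The count of the 9 at an unadjusted p under 0.05 was 1, but 2 with library totals (15.9% of all genes) or limma-voom (21.8%), and 1 to 3 without single libraries; the cause was not tested. With the rod or the RPE score the count was again 1, but the gene was Gpx8 in place of Lpcat3. Library totals moved the median over all genes, on the log2 scale, from -0.07 to -0.37 and the share of higher genes among those with an unadjusted p under 0.05 from 795 of 1794 to 268 of 2390.

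Signs turned as follows on the log2 scale. Gpx1 was -0.25 with library totals, -0.21 in limma-voom, -0.0154 with the replicate block by library number, -0.33 with the rod score and -0.24 with the RPE score. Gpx4 was -0.31 with the rod score and -0.14 with the RPE score. Gpx7 was -0.15 in limma-voom, -0.67 with the rod score and -0.38 with the RPE score. Acsl4 was 0.0127 in limma-voom. Aifm2 was 0.37 in limma-voom, 0.12 and 0.23 with the replicate block by title and library number, 0.87 with the rod score, 0.0407 with the Y-linked level and 0.57 with the RPE score. Alox15 was -0.0515 with library totals, -0.18 in limma-voom, -1.93 with the rod score and -0.65 with the RPE score. Without single libraries Gpx1 ran from -0.21 to 0.28, Gpx7 from -0.22 to 0.97, Gpx8 from -0.64 to 0.0041, Aifm2 from -0.25 to 0.52 and Alox15 from -0.44 to 0.59. The RPE score was chosen after seeing the data.

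Sample titles and library names number the replicates differently. Same-numbered libraries did not deviate together (r from -0.09 to 0.01 by title, -0.13 to 0.01 by library number), so the numbers were not taken to pair libraries, and the replicate block changed no call among the 9.

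The RPE share difference of 2.58 percentage points was 0.876 without Rgr (exact p = 0.257). The rod share difference was -1.29 percentage points without its most abundant gene (exact p = 0.0571) and -2.86 to -0.85 without single libraries, where fewer libraries cannot reach 0.05. The macrophage difference of -0.00517 points was -0.0238 without its most abundant gene, Csf1r (exact p = 0.0286), and -0.0111 to 0.00369 without single libraries.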
